A study of Mus musculus with 43 samples.

Results

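The genes described here include 4 class I alpha-mannosidase genes (Man1a, Man1a2, Man1b1 and Man1c1) and the 2 Golgi class II alpha-mannosidase genes (Man2a1 and Man2a2). The others are 3 N-acetylglucosaminyltransferase genes that build glycan branches (Mgat1, Mgat2 and Mgat5) and the core fucosyltransferase gene Fut8. Together these are 10 of the 55416 genes in the count files, and all 10 were found by symbol. Man1a2 entered the list because the study reported it lower in Rag2-/- than in control oligodendrocytes, so its values in that contrast are given as a description, with no test. The other 9 were taken for their place in the pathway. The libraries came from immunopanned cells of the cerebral cortex grey matter of 3-month-old mice. Immunopanning holds cells on antibody-coated dishes, here against CD45 for microglia, PDGFRA for oligodendrocyte precursor cells (OPCs), GalC for oligodendrocytes and HepaCAM for astrocytes. Rag2-/- mice carry a germline deletion in every cell and have no mature T or B lymphocytes. The control mice, which have lymphocytes, were Rag2+/- in littermate pairs 1, 2, 3 and 5 and Rag2+/+ in pairs 4 and 6. Both genotypes came from heterozygous parents on a C57BL/6J background and were housed together. Oligodendrocytes were sequenced from 4 control and 4 Rag2-/- mice (pairs 1, 3, 5 and 6), OPCs from 6 and 5, and astrocytes and microglia from 6 and 6 each. The littermates of a pair were of the same sex except in pair 6, where the control was male and the Rag2-/- mouse female.

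N-glycans are attached to new proteins in the endoplasmic reticulum as a large mannose-rich precursor. Class I mannosidases trim its outer mannoses: Man1b1 acts early and helps to mark misfolded glycoproteins for degradation, while Man1a, Man1a2 and Man1c1 trim in the Golgi. Mgat1 then adds the first N-acetylglucosamine, Man2a1 or Man2a2 removes further mannoses, Mgat2 starts a second branch, Mgat5 adds a branch that binds galectins, and Fut8 places a fucose on the core. In the brain these steps shape cell adhesion molecules, ion channels and receptors.

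The libraries held 6499417 to 23118497 counts on genes (median 10447042), and mitochondrially encoded genes took 45.8 to 60.1% of them in oligodendrocytes and 6.75 to 11.7% in microglia. The libraries of each cell type were run together on 1 lane, and whether types shared lanes is not given in the sources used here, so the part of the lane in differences between types was not tested. In bulk libraries, fewer cells of a type and less RNA per cell cannot be told apart either. The defining markers stood highest in the matching libraries for 8 of 8 oligodendrocyte, 6 of 6 OPC, 7 of 7 astrocyte and 6 of 6 microglial genes. Other cells were present too: oligodendrocyte markers stood in astrocyte libraries at a median 21.1% of their level in oligodendrocytes, and OPC markers in oligodendrocyte libraries at 15.4% of their level in OPCs. Rag2 had no count in any of the 21 Rag2-/- libraries and at most 4 counts, in 3 of the 22 control libraries, so it could hardly check the labels in these cells.

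The mannosidases of a class are close relatives, and reads of 50 bases must tell them apart. The stretch shown is the 60-base coding window in which Man1a and Man1a2 share the most bases. Only windows inside a single exon and aligned without gaps in the 3 Golgi class I genes were considered. The stretch is given on GRCm39, 5′ to 3′ on the coding strand, with capitals for bases that differ from Man1a2. It lies in exon 10 of Man1a2 (chr3:100495119-100495178, minus strand), exon 10 of Man1a (chr10:53796224-53796283, minus strand) and exon 9 of Man1c1 (chr4:134296292-134296351, minus strand).
Man1a2: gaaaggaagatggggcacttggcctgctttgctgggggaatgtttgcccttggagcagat
Man1a: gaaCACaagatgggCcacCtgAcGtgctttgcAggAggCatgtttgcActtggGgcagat
Man1c1: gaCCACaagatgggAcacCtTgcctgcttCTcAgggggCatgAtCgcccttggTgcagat
Even here Man1a differed from Man1a2 at 12 of 60 bases, and the longest run of shared bases was 8. Man1c1, whose likeness did not enter the choice of window, differed at 14, also with a longest run of 8. The proteins translated from the reference transcripts were 64.1% identical between Man1a2 and Man1a, 54.2% between Man1a2 and Man1c1, and 37.1% between Man1a2 and Man1b1. Man2a1 and Man2a2 were 54.5% identical. Of all 50-base windows in the exons, 6.60% in Fut8 and 1.80% in Man1a2 had an exact copy elsewhere in the genome. The share was 1.04% in Man2a2 and at most 0.254% in the others. Exons of a gene on the other strand covered 13.8% of the Mgat2 exons (Rpl36al), 11.7% of those of Mgat5 (Tmem163) and 7.35% of those of Man2a2 (Hddc3). Whether counting used the strand is not given in the sources used here, so reads from these overlaps cannot be assigned to a strand.

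The levels that follow are CPM, counts scaled to library size and then normalized with trimmed-mean (TMM) factors over all 43 libraries, as mean ± SD over control libraries (n = 4 for oligodendrocytes, n = 6 for the other types). Differences are log2 fold changes from edgeR's quasi-likelihood test over 19368 genes, fitted to the 22 control libraries with sex as a covariate, and a gene was called at a Benjamini-Hochberg adjusted p under 0.05. Summed per exonic kilobase, the 10 genes stood at 102 ± 16.7 CPM per kb in microglia, 48.0 ± 4.21 in oligodendrocytes, 40.8 ± 3.49 in OPCs and 37.1 ± 1.75 in astrocytes.

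**Figure D1:**
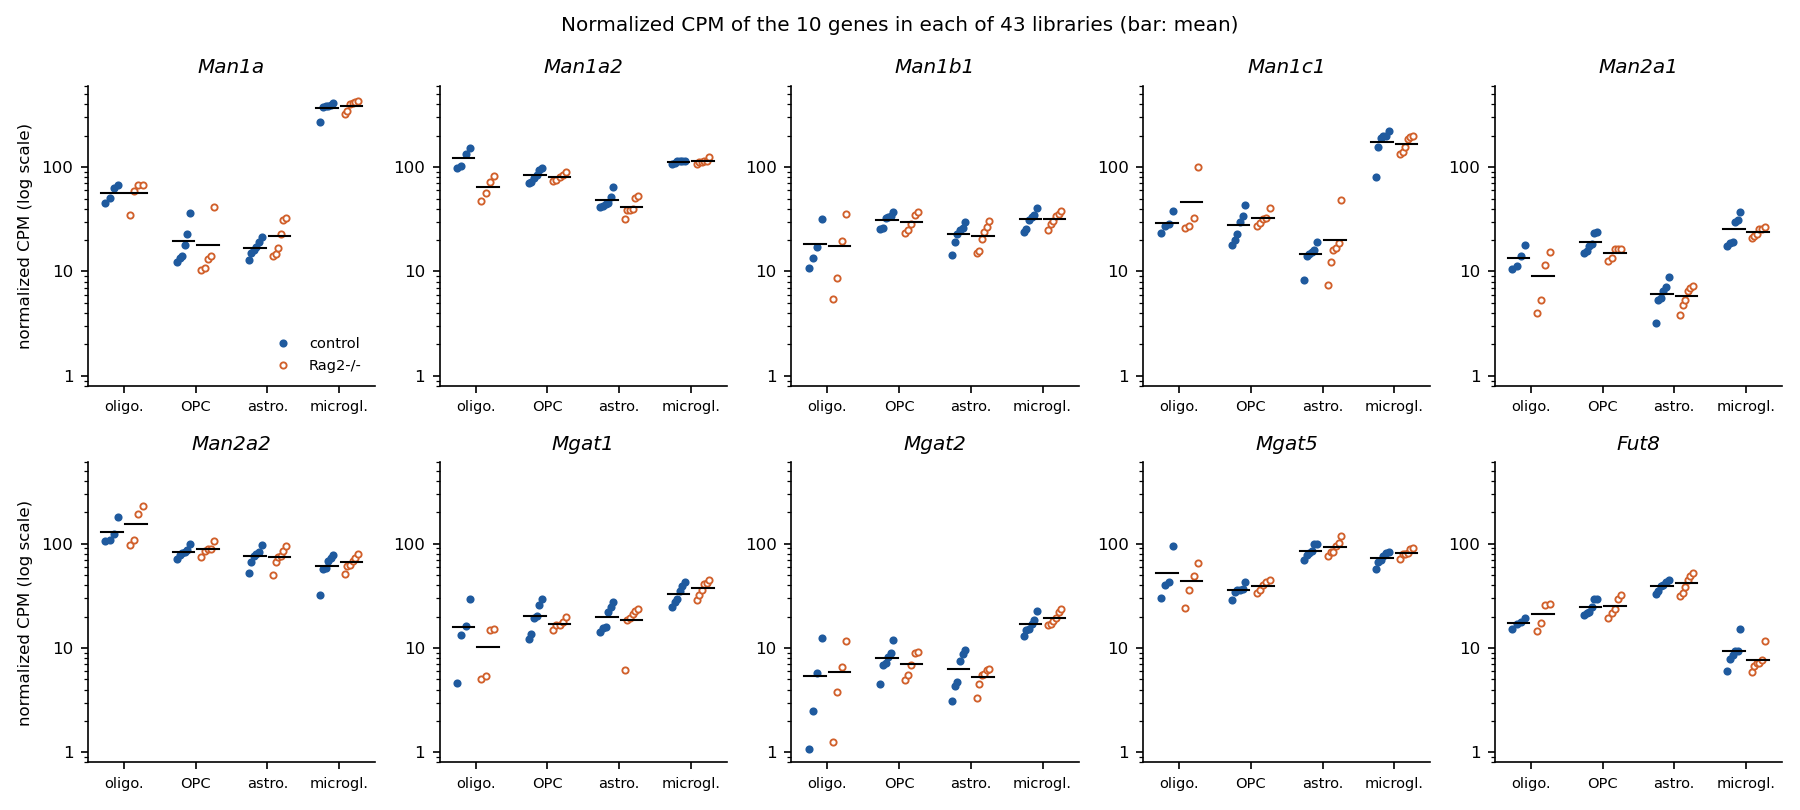
Normalized CPM on a log axis for each of the 10 genes in the 43 libraries, by cell type (filled blue, control; open orange, Rag2-/-; bar, mean of the group). Man1a and Man1c1 are far higher in microglia than in the other types, and Fut8 is lowest there. The genotypes do not overlap for Man1a2 in oligodendrocytes, the contrast it was picked on (2.31% of all genes did not overlap there).

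Man1a, a Golgi class I enzyme, was mainly a microglial transcript. It measured 369.6 ± 50.01 CPM in microglia (lowest 270, median 384, highest 408), against 56.9 ± 10.8 in oligodendrocytes (45.2 to 68.2), 19.6 ± 9.26 in OPCs (12.4 to 36.7) and 16.9 ± 3.02 in astrocytes (12.8 to 21.3). The microglial libraries all stood above those of every other type, and oligodendrocytes stood above OPCs and astrocytes without overlap. The step from microglia to oligodendrocytes was 2.74 on the log2 scale (SE 0.27, edgeR adjusted p = 6.99e-09, coded as -2.74 for oligodendrocytes minus microglia), and that from oligodendrocytes to OPCs was 1.57 (SE 0.24, edgeR adjusted p = 3.24e-05). Without TMM factors the step to OPCs was 0.48 and was no longer called (edgeR adjusted p = 0.122). OPCs and astrocytes did not differ beyond their spread (0.17, 95% interval -0.28 to 0.63), and the sign of that difference rested on OPC control 3, without which it was -0.17.

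Man1c1, the third Golgi class I gene, had the same leading cell type. Its level was 175 ± 51.1 CPM in microglia (80.4 to 223), 29.3 ± 6.15 in oligodendrocytes, 28.1 ± 9.68 in OPCs and 14.7 ± 3.57 in astrocytes. Oligodendrocytes lay 2.61 log2 units under microglia (-2.61, SE 0.30, edgeR adjusted p = 9.24e-08), and did not differ from OPCs beyond the spread (0.10, interval -0.47 to 0.66). Astrocytes were the lowest, 0.89 under OPCs (SE 0.25, edgeR adjusted p = 0.0078). In the Rag2-/- libraries that last difference was 0.59 and was not called.

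Man1a2 had a flatter profile. Control oligodendrocytes measured 98.8, 102, 133 and 152 CPM in pairs 1, 3, 5 and 6 (mean 121 ± 25.3), microglia 113 ± 3.25 (108 to 116), OPCs 83.3 ± 11.4 (70.6 to 98.6) and astrocytes 48.1 ± 8.78 (41.3 to 64.4). The microglial libraries were the tightest of the 4 groups and fell inside the oligodendrocyte range. Astrocytes were under each of the other types without overlap with oligodendrocytes or OPCs, by 1.33 against oligodendrocytes (SE 0.16, edgeR adjusted p = 5.5e-07). Oligodendrocytes and microglia were not told apart (0.06, interval -0.27 to 0.39). Oligodendrocytes were above OPCs by 0.57 (SE 0.16, edgeR adjusted p = 0.00882), a call lost without a filter on low counts (edgeR adjusted p = 0.0882) and a direction that turned to -0.54 without TMM factors and to -0.33 between the Rag2-/- libraries of these types. The control oligodendrocyte libraries in this comparison are also those in the contrast Man1a2 was picked on.

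Man1b1, the early-acting enzyme, ranged from 18.2 ± 9.31 CPM in oligodendrocytes through 22.9 ± 5.37 in astrocytes and 31.4 ± 4.40 in OPCs to 31.5 ± 6.07 in microglia. No step between neighbours in that order was called. Oligodendrocytes were under OPCs (-0.78, SE 0.26, edgeR adjusted p = 0.0275) and under microglia (-0.85, SE 0.26, edgeR adjusted p = 0.00682). The first of these was lost when control 1, 5 or 6 of the oligodendrocytes was left out (edgeR adjusted p from 0.0609 to 0.0902), and it was not called in the Rag2-/- libraries (-0.85, edgeR adjusted p = 0.0785).

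Per exonic kilobase, the transcripts of the 4 class I genes described here were therefore made up differently in each type. Man1a2 gave 44.4 ± 6.47% of them in control oligodendrocytes, 38.1 ± 5.00% in OPCs and 34.3 ± 5.27% in astrocytes, the largest share of the 4 genes on average in each. In astrocytes Man1b1 was next to it at 33.1 ± 5.87%, and the ranges overlapped. Microglia differed, with 43.001 ± 2.79% from Man1a, 36.6 ± 5.93% from Man1c1 and 13.1 ± 2.85% from Man1a2. With the length of the canonical transcript in place of all exonic bases, the microglial share of Man1a was 55.3%, and Man1b1 (33.3%) passed Man1a2 (31.3%) in astrocytes.

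The class II gene Man2a2 had its highest mean in oligodendrocytes and Man2a1 in microglia. Man2a2 measured 130 ± 34.5 CPM in oligodendrocytes (107 to 180), and OPCs (83.6 ± 9.88), astrocytes (75.7 ± 14.8) and microglia (61.0 ± 16.1) followed. Oligodendrocytes stood above astrocytes (0.77, SE 0.21, edgeR adjusted p = 0.00602) and microglia (1.05, SE 0.21, edgeR adjusted p = 0.000189). They also stood above OPCs (0.67, SE 0.21, edgeR adjusted p = 0.0214), which was lost without oligodendrocyte control 1 (0.46, edgeR adjusted p = 0.12) and turned to -0.42 without TMM factors. The calls against astrocytes and microglia were also lost without TMM factors (0.10, edgeR adjusted p = 0.76, and 0.16, edgeR adjusted p = 0.582). OPCs, astrocytes and microglia did not differ from each other beyond the spread.

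Man2a1 measured 25.7 ± 8.19 CPM in microglia, 18.99 ± 3.78 in OPCs, 13.4 ± 3.34 in oligodendrocytes and 6.11 ± 1.89 in astrocytes (3.205 to 8.86). The astrocyte libraries lay below those of each other type without overlap, by 1.60 against OPCs (SE 0.24, edgeR adjusted p = 1.11e-05) and 1.11 against oligodendrocytes (SE 0.26, edgeR adjusted p = 0.00159). The difference from oligodendrocytes was not called without TMM factors (0.46, edgeR adjusted p = 0.181) or in the Rag2-/- libraries (0.56, edgeR adjusted p = 0.143). The difference from oligodendrocytes to OPCs was not called (-0.50, interval -1.03 to 0.04). That from OPCs to microglia sat at the threshold (-0.53, SE 0.23, edgeR adjusted p = 0.046) and was lost without microglial control 2, 3 or 6, OPC control 1, 2, 3, 4 or 5, astrocyte control 3, 4, 5 or 6, or oligodendrocyte control 3 (edgeR adjusted p from 0.0504 to 0.134). It was lost too with the mouse as a replicate block (-0.51, edgeR adjusted p = 0.0719), without TMM factors (-0.32, edgeR adjusted p = 0.265) and without a filter on low counts (-0.49, edgeR adjusted p = 0.202).

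Of the branching enzymes, Mgat1 and Mgat2 were highest in microglia. Mgat1, which opens the way to hybrid and complex glycans, measured 33.2 ± 7.28 CPM there against 20.1 ± 6.66 in OPCs, 20.01 ± 5.45 in astrocytes and 15.95 ± 10.4 in oligodendrocytes. The last 3 did not differ from each other beyond the spread. Microglia were above oligodendrocytes by 1.08 (-1.08 for oligodendrocytes minus microglia, SE 0.36, edgeR adjusted p = 0.0126). The differences from OPCs (-0.81, edgeR adjusted p = 0.0263) and astrocytes (-0.76, edgeR adjusted p = 0.0364) lay near the threshold. With a library left out they ran from -0.94 to -0.70 and from -0.88 to -0.60. The first call was lost without microglial control 4 or OPC control 1 or 3, or without TMM factors (-0.61, edgeR adjusted p = 0.136). The second was lost without any of 10 libraries (astrocyte controls 2 to 5, microglial controls 3 to 6, OPC controls 2 and 6). It was lost too with the mouse as a replicate block (-0.72, edgeR adjusted p = 0.0673). Mgat2, the next enzyme, measured 16.9 ± 3.42 CPM in microglia (13.02 to 22.7), above every OPC (4.56 to 11.9), astrocyte (3.13 to 9.54) and oligodendrocyte library (1.07 to 12.5). Mgat2 in oligodendrocytes rested on 7 to 97 counts a library, so its values there are the least precise of the 10 genes. Oligodendrocytes were under microglia by 1.67 (-1.67, SE 0.48, edgeR adjusted p = 0.00453).

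Mgat5 and Fut8 were instead highest in astrocytes. Mgat5 measured 85.2 ± 11.8 CPM in astrocytes and 72.6 ± 9.81 in microglia, which did not differ (0.19, interval -0.20 to 0.58), 52.1 ± 28.6 in oligodendrocytes and 35.8 ± 4.54 in OPCs. Every astrocyte library (69.3 to 99.3) lay above every OPC library (29.0 to 43.1), with OPCs lower by 1.29 (-1.29, SE 0.19, edgeR adjusted p = 1.28e-05). The oligodendrocyte spread came mainly from control 5, at 94.1 CPM. Fut8 measured 39.3 ± 4.39 CPM in astrocytes (33.3 to 44.7), 24.7 ± 3.98 in OPCs (20.6 to 29.6), 17.3 ± 1.79 in oligodendrocytes (15.1 to 19.3) and 9.37 ± 3.16 in microglia (6.00 to 15.3). Astrocytes overlapped with no other type, and exceeded microglia by 2.04 (SE 0.20, edgeR adjusted p = 5.5e-09). OPCs and oligodendrocytes did not differ by the test (-0.48 for oligodendrocytes minus OPCs, edgeR adjusted p = 0.11). Fut8 was higher in oligodendrocytes than in microglia (0.84, SE 0.22, edgeR adjusted p = 0.00202), although this turned to -0.04 without TMM factors.

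Counted over the 10 genes, edgeR called 4 between oligodendrocytes and OPCs (26.8% of all genes tested were called), 7 between oligodendrocytes and astrocytes (37.6%), 9 between oligodendrocytes and microglia (58.7%), 5 between OPCs and astrocytes (31.0%), 8 between OPCs and microglia (60.9%) and 7 between astrocytes and microglia (61.0%). The median log2 difference of the 10 was -0.08, 0.27, -0.94, 0.22, -0.67 and -1.01 in that order, and the median of all genes tested -0.14, 0.02, -0.08, 0.10, 0.09 and 0.05. The scaling weighed on contrasts with oligodendrocytes, whose mitochondrial share was the highest: with total counts alone, the median of all genes moved to -1.21 against OPCs, -0.62 against astrocytes and -0.93 against microglia. It moved to 0.52 between OPCs and astrocytes, 0.31 between OPCs and microglia and -0.15 between astrocytes and microglia. Relative to that median, Man1a2 between oligodendrocytes and OPCs was 0.71 with TMM factors and 0.67 without, Man2a2 was 0.80 with both, and Fut8 between oligodendrocytes and microglia was 0.93 and 0.89.

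The ratio of 2 genes within a library does not depend on its scaling. The log2 ratio of Man1a to Man1a2, per exonic kilobase, averaged 1.74 ± 0.22 in control microglia, -1.05 ± 0.38 in oligodendrocytes, -1.46 ± 0.38 in astrocytes and -2.15 ± 0.58 in OPCs. Microglia were the only type with more Man1a than Man1a2 in every control library. Tests of this ratio with oligodendrocytes carry a limit: their controls also belong to the contrast Man1a2 was picked on. In Rag2-/- oligodendrocytes the ratio averaged -0.15 ± 0.71. Of the 6 pairs of cell types, 5 differed by an exact two-sided permutation test, adjusted over 12 ratio tests: the adjusted p was 0.00649 for microglia against OPCs and against astrocytes, 0.0163 for oligodendrocytes against microglia, 0.0254 for oligodendrocytes against OPCs and 0.0494 for OPCs against astrocytes. That last call was lost without OPC control 1, 2, 4 or 6 or astrocyte control 2, 3, 4 or 6, where the unadjusted exact p was 0.0693 to 0.0823. Oligodendrocytes and astrocytes were not told apart (0.42, exact permutation adjusted p = 0.125), although without oligodendrocyte control 6 the difference was 0.58 (unadjusted exact p = 0.0476). Man2a1 over Man2a2 averaged -0.72 ± 0.63 in microglia, -1.62 ± 0.29 in OPCs, -2.73 ± 0.09 in oligodendrocytes and -3.13 ± 0.59 in astrocytes. Man2a2 was therefore the more abundant of the 2 Golgi class II transcripts in all 4 types. Its share ran from 61.8 ± 9.84% in microglia to 89.3 ± 4.52% in astrocytes. Oligodendrocytes and astrocytes were again the pair not told apart (exact permutation adjusted p = 0.267), and without astrocyte control 1 they differed by 0.61 (unadjusted exact p = 0.0159). The smallest p these tests can give is 0.00952 with 4 against 6 libraries and 0.00216 with 6 against 6.

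**Figure D2:**
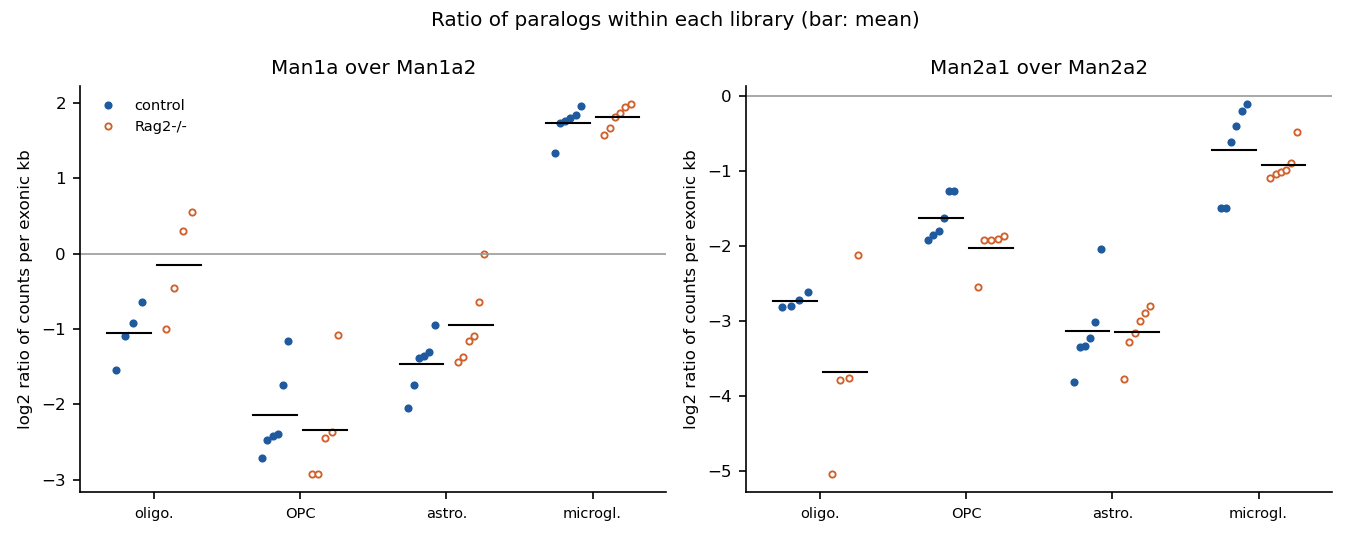
Log2 ratio of counts per exonic kilobase within each library, by cell type, for Man1a over Man1a2 and Man2a1 over Man2a2 (filled blue, control; open orange, Rag2-/-; bar, mean; grey line, equal levels). The Man1a ratio is above 0 in all microglial libraries, and the Man2a1 ratio is below 0 in every library.

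In oligodendrocytes Man1a2 was lower in Rag2-/- mice, the observation it was picked on. The Rag2-/- libraries measured 55.9, 47.3, 82.9 and 72.0 CPM in pairs 1, 3, 5 and 6 (mean 64.5 ± 15.98), and the controls 98.8, 102, 133 and 152. Each Rag2-/- library lay below all 4 controls and below its own littermate, by 0.68 to 1.11 on the log2 scale (-1.11 to -0.68). The fitted difference, with sex as a covariate, was -1.08 (SE 0.28), and it ran from -1.24 to -0.89 when each library was left out in turn. In this contrast edgeR called 0% of 13802 genes and DESeq2 0.695% of 29204, and 2.31% had groups that did not overlap. Nothing is read from these for Man1a2, whose contrast chose it. Per exonic kilobase its share of the transcripts of the 4 class I genes averaged 29.0 ± 13.6% in Rag2-/- oligodendrocytes (13.6 to 40.4%). In the controls it was 35.7 to 50.9%.

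**Figure D3:**
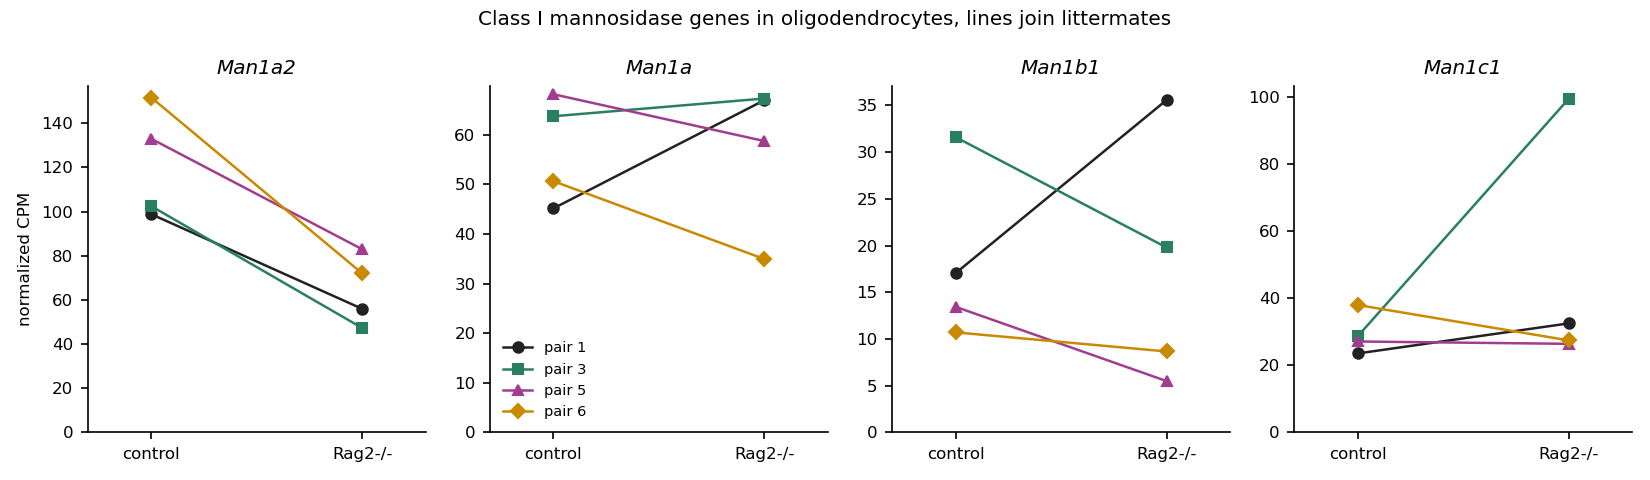
Normalized CPM of the 4 class I mannosidase genes in oligodendrocytes, with lines joining the littermates of a pair and each axis starting at 0. Man1a2 falls in each of the 4 pairs, in the contrast it was picked on. Man1a, Man1b1 and Man1c1 rise in some pairs and fall in others.

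The other class I genes are given by pair, and none of their differences from Man1a2 was tested. Man1a measured 67.0, 67.3, 58.7 and 34.9 CPM in Rag2-/- libraries of pairs 1, 3, 5 and 6 and 45.2, 63.7, 68.2 and 50.6 in the controls. It was higher in 2 pairs and lower in 2, and the fitted difference was -0.01 (interval -0.68 to 0.66), or 0.30 without control 5. The difference in Man1a was not set against that of Man1a2, which was chosen on this contrast. Man1b1 measured 35.6, 19.8, 5.50 and 8.67 CPM against 17.05, 31.6, 13.4 and 10.7 in the controls. It was lower in 3 of 4 pairs and its interval was wide (-0.04, -1.17 to 1.10), and the estimate moved to 0.48 without control 5 and to -0.44 without Rag2-/- 1. Man1c1 measured 32.5, 99.4, 26.4 and 27.4 CPM against 23.5, 28.6, 27.1 and 37.9. A single library, Rag2-/- 3, carried its higher mean, and the fitted difference was 0.68 (interval -0.25 to 1.60) with it and 0.03 without it.

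Among the later enzymes, no gene was called. Man2a2 measured 191, 228, 108 and 97.3 CPM in Rag2-/- libraries against 180, 123, 108 and 107 in the controls, a difference of 0.34 (interval -0.20 to 0.87) that was positive in 2 pairs and negative in 2. Mgat5 was lower in 3 of 4 pairs (-0.50, interval -1.16 to 0.15), with 35.6, 24.4, 65.6 and 48.9 CPM against 40.6, 43.1, 94.1 and 30.4. Man2a1 gave -0.62 (interval -2.06 to 0.82), at 3.96, 11.6, 5.34 and 15.4 CPM against 17.9, 13.9, 10.6 and 11.2, and moved to -0.21 without Rag2-/- 1 and to -0.995 without Rag2-/- 3. Mgat1 gave -0.61 (interval -2.14 to 0.92), which moved to -0.21 without control 3 and to -1.06 without Rag2-/- 3. Mgat2 gave 0.34 (-1.58 to 2.25) and Fut8 0.09 (-0.84 to 1.01). The intervals of the 9 genes are wide, up to -1.58 to 2.25 for Mgat2, so a gene that was not called may still have changed. They were not set against the value of Man1a2, which was chosen on this contrast. Of the 9 genes, edgeR called 0 (0% of all genes), none had an unadjusted p under 0.05 (3.38% of all genes had one), and DESeq2 called 0 (0.695% of all genes). The groups overlapped for all 9. Their median log2 difference was -0.01, and that of all genes tested 0.00.

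The marker sums of other cells in these 8 libraries overlapped between the genotypes. The 8 neuronal markers summed to 599 to 2262 CPM in Rag2-/- oligodendrocytes (median 1715) and 620 to 3093 in controls (median 1671), and the 6 microglial markers to 356 to 835 and 231 to 893 (medians 442 and 429). The 6 mural and fibroblast markers were lower, at 9.07 to 42.5 CPM in Rag2-/- (median 24.6) and 12.8 to 101 in controls (median 53.6). The 5 endothelial markers summed to 2.94 to 11.6 CPM and 4.98 to 19.1, with 2 of the 5 at 0 in all Rag2-/- libraries. The part of these cells in the values was not tested.

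In the other 3 types no gene of the 10, Man1a2 included, was called by genotype. Man1a2 measured 80.9 ± 7.11 CPM in Rag2-/- OPCs (n = 5) against 83.3 ± 11.4 in controls (-0.05, interval -0.29 to 0.18). In astrocytes it measured 42.0 ± 7.95 CPM against 48.1 ± 8.78, lower in 4 of 6 pairs (-0.20, interval -0.53 to 0.13). In microglia it measured 114 ± 5.91 against 113 ± 3.25 (0.00, interval -0.19 to 0.19). Whether the effect differs between cell types was not tested, because the oligodendrocyte value chose the gene and is no mark to set these intervals against.

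**Figure D4:**
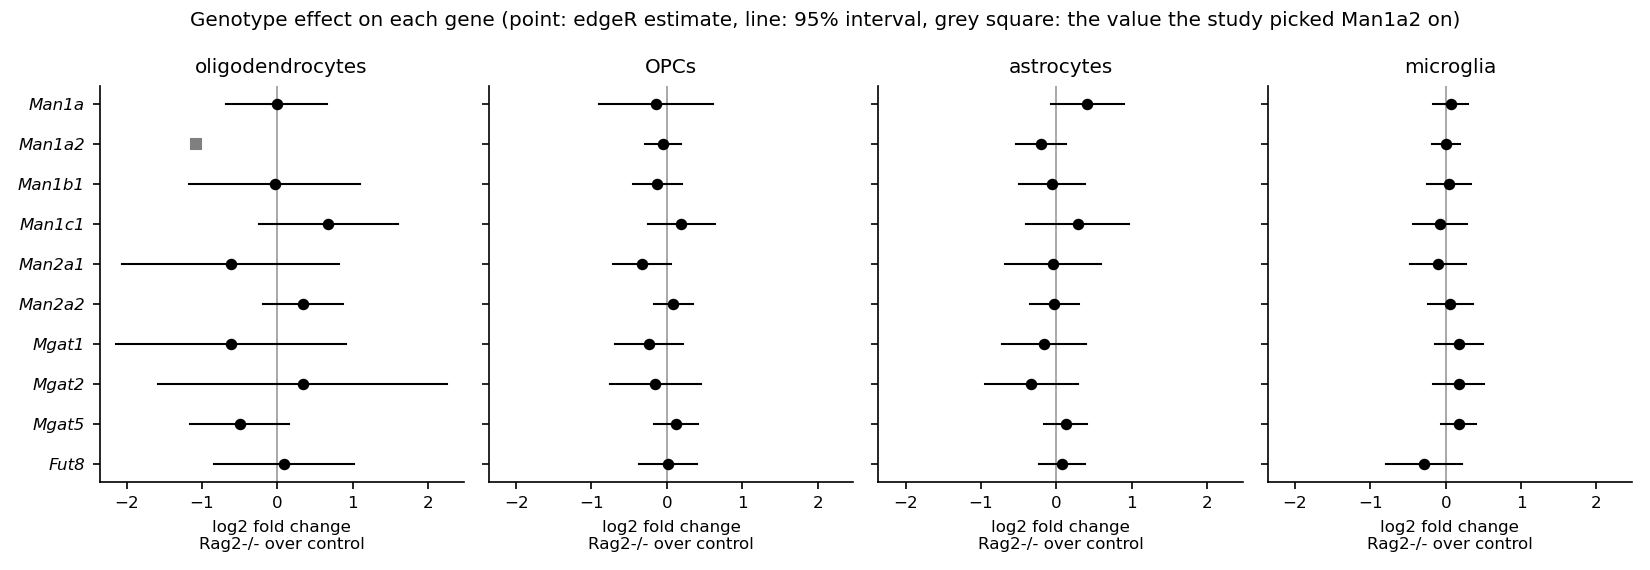
Log2 fold change of Rag2-/- over control for the 10 genes in each cell type (point, edgeR estimate; line, 95% interval; grey square, the value Man1a2 was picked on). The grey square is drawn without an interval. The intervals of the other values span 0, and the widest are in oligodendrocytes, which had 4 libraries a group.

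Over all 10 genes the OPC estimates ran from -0.34 to 0.19 (median -0.09), the astrocyte estimates from -0.33 to 0.41 (median -0.03) and the microglial estimates from -0.29 to 0.18 (median 0.05), and the medians of all genes were -0.01, 0.00 and -0.01. edgeR called 0 of 10 in OPCs (0.00592% of all genes), 0 in astrocytes (0.00679%) and 0 in microglia (0.00667%), and DESeq2 likewise 0 (0.0149%, 0.00300% and 0.00916%). None had an unadjusted p under 0.05. The groups overlapped for each of the 10 in each type, where 0.403%, 0.122% and 0.133% of all genes had groups that did not. The lowest estimate in OPCs was Man2a1 at -0.34 (interval -0.72 to 0.05), with 15.1 ± 1.81 CPM against 18.99 ± 3.78 and lower levels in 4 of 5 pairs. The highest in astrocytes was Man1a at 0.41 (interval -0.07 to 0.90), higher in 4 of 6 pairs. Mgat2 in microglia was higher in 6 of 6 pairs, by 0.07 to 0.35 on the log2 scale, but the groups overlapped and the fit gave 0.17 (SE 0.16, edgeR adjusted p = 0.999).

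The genes of the Man2a1 to Man2a2 ratio were not picked on the genotype contrast. By genotype this ratio had its smallest p in OPCs, where it differed by -0.41 (-2.03 ± 0.29 in Rag2-/- and -1.62 ± 0.29 in controls). The exact two-sided permutation p was 0.013 there and 0.0519 after adjustment over 4 tests, so it was not called. Without OPC control 1 it was. In oligodendrocytes the ratio differed by -0.94, with a spread of ± 1.19 among Rag2-/- libraries (exact permutation adjusted p = 0.286). Astrocytes (-0.03) and microglia (-0.20) were closer. The Man1a to Man1a2 ratio averaged -2.34 ± 0.76 in Rag2-/- OPCs, -0.95 ± 0.54 in astrocytes and 1.81 ± 0.16 in microglia. It averaged -0.15 ± 0.71 in Rag2-/- oligodendrocytes, a value set by the gene that was picked.

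Sex, a covariate in these fits, went with larger differences than genotype for some of the genes in oligodendrocytes. Females were control 5, Rag2-/- 5 and Rag2-/- 6, and the other 5 libraries were male. Mgat5 measured 94.1, 65.6 and 48.9 CPM in these females and 40.6, 35.6, 43.1, 24.4 and 30.4 in the males. Within pair 6, the only pair of both sexes, the female Rag2-/- mouse was at 48.9 and the male control at 30.4. Every female lay above every male, and the fitted difference was 1.21 (SE 0.30, interval 0.55 to 1.87). edgeR did not call it (adjusted p = 0.474), while DESeq2 did (adjusted p = 0.0103). Fut8 was also higher in all 3 females, at 19.3, 26.2 and 25.997 CPM against 14.7 to 17.9 in males (0.61, SE 0.43, edgeR adjusted p = 0.753). These were the 2 of 10 genes whose sexes did not overlap, and 6.50% of all genes had the same.

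Man1b1, Mgat2 and Man2a2 stood lower in the females on average. Man1b1 averaged 9.20 CPM in females and 22.9 in males (-1.20, SE 0.57), Mgat2 2.50 and 7.52 (-1.52, SE 0.96), and Man2a2 104.4 and 166 (-0.61, SE 0.26). The male control 6 lay below the female range for Mgat2, at 1.07 CPM, and within it for Man1b1 (10.7) and Man2a2 (107). Since pairs 5 and 6 hold all the females and only 1 male, sex and litter can hardly be told apart in these 8 libraries. edgeR called 0 of 10 genes by sex (0.0362% of all genes), with 2 at an unadjusted p under 0.05 (Mgat5 and Man2a2; 8.23% of all genes), and DESeq2 called Mgat5 alone (1.49%). By sex in the other types, edgeR called 0 of 10 in OPCs (0.0296%), 0 in astrocytes (0.0407%) and 0 in microglia (0.0467%), with 0, 0 and 1 at an unadjusted p under 0.05, and DESeq2 called 0 in each (0.0388%, 0.0540% and 0.0336%).

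**Figure D5:**
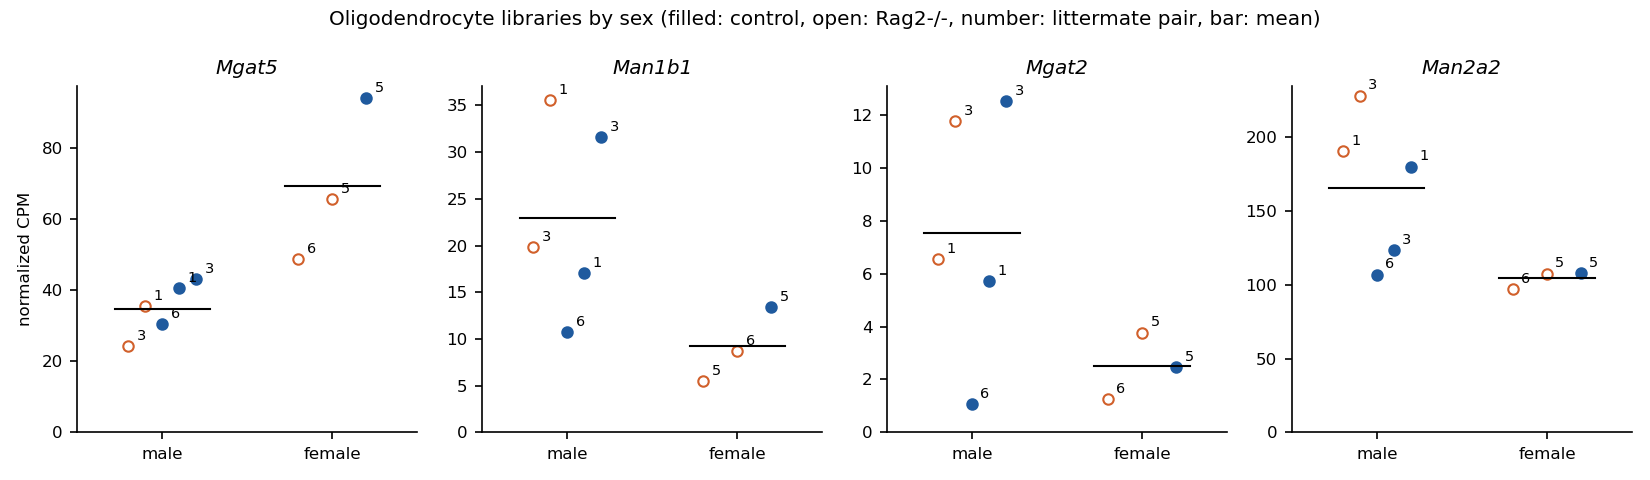
Normalized CPM of Mgat5, Man1b1, Mgat2 and Man2a2 in the 8 oligodendrocyte libraries by sex (filled, control; open, Rag2-/-; number, littermate pair; bar, mean), with each axis starting at 0. The 3 females are above all males for Mgat5, and the male of pair 6 is within the female range for Man1b1 and Man2a2 and below it for Mgat2.

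The difference of the sex effect between cell types was tested in a fit of all 43 libraries, added after the values were seen. The sex effect in oligodendrocytes, minus its mean in the other 3 types, was 1.12 for Mgat5 (SE 0.20, edgeR adjusted p = 0.00064), -1.29 for Man1b1 (SE 0.34, edgeR adjusted p = 0.0166), -1.80 for Mgat2 (SE 0.51, edgeR adjusted p = 0.0257) and -0.77 for Man2a2 (SE 0.24, edgeR adjusted p = 0.0423). These 4 of 10 genes stand against 7.46% of all genes called in that contrast. The same contrast for OPCs, astrocytes and microglia called 0 of 10 each (0.00936%, 0.0187% and 0.00468% of all genes). Mgat5 was called in each of 13 alternative fits (0.89 to 1.37), and the others were not: Man1b1 was lost without Rag2-/- 1 (adjusted p = 0.105) or Rag2-/- 5 (0.0991), Mgat2 was lost without control 3 or 5 or Rag2-/- 3 or 6 (0.0578 to 0.107) or without a filter on low counts (0.0637), and Man2a2 without control 1 or 3 or Rag2-/- 1, 3, 5 or 6 (0.0511 to 0.164). Man2a2 was also lost with DESeq2 size factors (adjusted p = 0.0804), with mitochondrial genes left out (0.0719) and without a filter (0.152). The fit borrows its spread from all 4 types and treats the libraries of a mouse as independent. Its SEs were below those of the sex effect in oligodendrocytes alone: 0.20 against 0.30 for Mgat5 and 0.34 against 0.57 for Man1b1. For Mgat2 they were 0.51 against 0.96, and for Man2a2 0.24 against 0.26. The adjusted p-values of this fit may therefore be too small, and the litters behind the sexes are as above. The 8 neuronal markers summed to 2252 to 2303 CPM in the 3 female oligodendrocyte libraries (median 2262) and 599 to 3093 in the 5 male ones (median 1040). The 6 mural and fibroblast markers summed to 35.6 to 93.7 (median 42.5) in females and 9.07 to 101 (median 13.4) in males. Both ranges overlapped, and their part in the sex differences was not tested. Tmem163, whose exons overlap Mgat5 on the other strand, differed in the other direction, at 31.7 CPM in females and 66.3 in males (-0.96, SE 0.40, edgeR adjusted p = 0.558).

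In the wider N-glycan pathway no gene was called by genotype. Of a list of 84 other genes of the pathway, 83 had a symbol in the annotation. edgeR called 0 of the 82 tested in oligodendrocytes, 0 of 83 in OPCs, 0 of 83 in astrocytes and 0 of 81 in microglia, and their median log2 differences were 0.05, 0.03, -0.01 and 0.00. Of all genes, edgeR called 0%, 0.00592%, 0.00679% and 0.00667% in that order. An unadjusted edgeR p under 0.05 was seen for 0, 2, 1 and 2 of the list, against 3.38%, 4.02%, 2.87% and 2.91% of all genes, and DESeq2 also called 0 in each type.

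Between cell types, each count of the list stands beside the share of all genes called in the same comparison. Of the 83 genes, 19 were called between oligodendrocytes and OPCs (26.8% of all genes), 28 between oligodendrocytes and astrocytes (37.6%), 57 between oligodendrocytes and microglia (58.7%), 23 between OPCs and astrocytes (31.0%), 50 between OPCs and microglia (60.9%) and 44 between astrocytes and microglia (61.0%). Against OPCs, 1 was higher in oligodendrocytes (12.5% of all genes) and 18 lower (14.3%), with a median of -0.44. Against astrocytes, 8 were higher (20.5%) and 20 lower (17.1%), with a median of -0.39, and against microglia 13 were higher (29.8%) and 44 lower (29.0%), with a median of -0.78. The medians of all genes and their shift with the scaling are given above. Of the 15 genes of Golgi branching and capping, 8 were called against astrocytes (37.6% of all genes), 6 of them higher in oligodendrocytes (20.5%). Mgat4a, which adds another branch, was 3.97 lower in oligodendrocytes than in microglia (-3.97, SE 0.26, edgeR adjusted p = 7.9e-12), and in astrocytes lower than in oligodendrocytes by a further 2.48 (SE 0.23, edgeR adjusted p = 1.6e-08). Mgat3, which adds the bisecting residue, ran the other way, 5.404 higher in oligodendrocytes than in microglia (SE 0.41, edgeR adjusted p = 8.6e-11). So did Fut9, a fucosyltransferase of the outer branches (4.48, SE 0.40, edgeR adjusted p = 1.3e-09). Of the 13 genes listed under breakdown, a list that also holds the processing enzyme Manea, all 13 were called between oligodendrocytes and microglia (58.7% of all genes). In oligodendrocytes 12 of them were lower (29.0%). Hexa, a subunit of lysosomal hexosaminidase, was among these (-3.01, SE 0.32, edgeR adjusted p = 2e-08). The other types were also mostly under microglia. Of the 13, 10 were called in OPCs (60.9%), 9 of them lower, and 8 in astrocytes (61.0%), 7 of them lower. Of the 12 oligosaccharyltransferase genes, which attach the precursor, 4 were called lower (14.3% of all genes) and 0 higher in oligodendrocytes than in OPCs. Stt3b, a catalytic subunit, was at -1.34 (SE 0.22, edgeR adjusted p = 6.7e-05). Other parts of the list had similar counts against OPCs. Of 14 genes of trimming and quality control in the endoplasmic reticulum, 5 were lower and 0 higher. Of 19 genes that build the precursor, 3 were lower and 1 higher.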

How the data were processed

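RNA of immunopanned cells was amplified (Ovation V2), made into libraries and sequenced as paired 50-base reads. Per the labels and the study's methods, the authors aligned reads to GRCm39 with STAR 2.7.8a and deposited raw read counts per gene from HTSeq, whose strand setting is not given in the sources used here. Rows that name no gene held 33.5 to 52.0% of each library's total and were left out.

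From these counts, edgeR 4.0.16 (R 4.3.3) fitted each cell type as sex plus genotype, with TMM factors, filterByExpr (minimum count 10, minimum total 15), the quasi-likelihood test and Benjamini-Hochberg adjustment over all genes tested (called under 0.05). DESeq2 1.42.0 was an alternative. Cell types were compared in control libraries. Intervals are 95% and SEs come from the fits. Ratios used a pseudocount of 0.5 counts and exact permutation tests (scipy 1.17.1). Gene models were from GENCODE, which held 54749 of the 55416 IDs. Sequences came from GRCm39, with transcripts translated by Biopython 1.88. The scripts were tested on simulated counts.

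Littermate numbers paired the samples: after group means were removed, same-pair libraries correlated at a mean 0.069 to 0.100 and other pairs at -0.029 to -0.014. No 2 libraries of the same cell type and genotype were alike within sampling noise. Libraries of different groups were not compared in this way.

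The genes, the pathway list and the marker lists were chosen with earlier results of these data known. Named pathway genes are among the 3 of smallest p in each direction of each comparison. Alg10b had no match.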

Additional observations from a re-analysis of the deposited data

Results flagged for a closer look

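Of the 80 sets of 1 gene in 4 to 6 libraries of 1 cell type and genotype, 8 held a library whose gap to the next, over the range of the set, passed Dixon's 95% limit, and chance alone gives about 1 in 20. Man1c1 measured 99.4 CPM in oligodendrocyte Rag2-/- 3, with the next library at 32.5, and 48.1 CPM in astrocyte Rag2-/- 6, with the next at 18.8. Man1a measured 41.9 CPM in OPC Rag2-/- 3, against 14.2 in the next, and 270 CPM in microglial control 1, where the next lowest was 376. Mgat1 was low in astrocyte Rag2-/- 1, at 6.13 CPM with the next at 18.6. Fut8 measured 15.3 CPM in microglial control 3 and 11.6 in microglial Rag2-/- 6, above 9.29 and 7.66. Man1a2 measured 125 CPM in microglial Rag2-/- 6, with the next at 113.

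The sex effect (females minus males) in oligodendrocytes differed from its mean in the other 3 types for 4 genes: by 1.12 for Mgat5 (SE 0.20, edgeR adjusted p = 0.00064), -1.29 for Man1b1 (SE 0.34, edgeR adjusted p = 0.0166), -1.80 for Mgat2 (SE 0.51, edgeR adjusted p = 0.0257) and -0.77 for Man2a2 (SE 0.24, edgeR adjusted p = 0.0423). These rest on 3 female libraries, all from pairs 5 and 6. Their p-values may be too small, since the SEs were below those of the sex effect in oligodendrocytes alone.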

How the results depend on the processing

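Of the values for single genes and ratios, 3196 recomputed under an alternative kept their direction and their side of the threshold, 82 lost a call and 24 gained a call. The sign changed in 143, of which 127 had no call on either side and are not listed singly unless named. Of the counts, 381 stayed within 1.5 times, 9 fell and 3 rose. By sex in oligodendrocytes DESeq2 called 1 of the 10 genes (Mgat5). Between oligodendrocytes and OPCs, 8 were called without TMM factors, 2 in the Rag2-/- libraries and 2 to 5 when a library was left out, with 2 without oligodendrocyte control 1. Between OPCs and microglia 5 were called without TMM factors. The sex effect specific to oligodendrocytes was called for 2 genes without a filter on low counts and for 2 to 5 when a library was left out, with 2 without control 3 or Rag2-/- 1, 3, 5 or 6. The Man2a1 to Man2a2 ratio by genotype was called in 0 to 1 cell types when a library was left out, with 1 without OPC control 1. The cause was not tested in any of these.

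Of the sign changes with a call, or by the SE or more, those without TMM factors were between oligodendrocytes and OPCs for Man1a2 (-0.54), Man1c1 (-1.004), Man2a2 (-0.42) and Mgat5 (-0.55), between oligodendrocytes and microglia for Man1a2 (-0.83) and Fut8 (-0.042), between OPCs and astrocytes for Mgat1 (0.38) and between astrocytes and microglia for Mgat5 (-0.024). Man1b1 between OPCs and microglia also went from -0.07 to 0.13, less than its SE. In the Rag2-/- libraries it changed for Man1a2 against OPCs (-0.33) and microglia (-0.88) and for Man1a between OPCs and astrocytes (-0.45). Leaving out a library gave -0.11 to 0.30 for Man1a by genotype in oligodendrocytes, -0.574 to 0.083 for Man1a by sex in OPCs, -0.057 to 0.484 for Man1c1 by genotype in astrocytes, -0.17 to 0.25 for Man1a between OPCs and astrocytes, and -0.40 to 0.62 for the sex effect of Man2a1 specific to oligodendrocytes.

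With the littermate pair as a replicate block in place of sex, 0 of 10 genes were called by genotype in each cell type, and Man1a2 in oligodendrocytes was -0.93. With the mouse as a block between cell types, 2 calls were lost, those of Man2a1 and Mgat1 given above, and no other changed. The OPC ratio had an exact sign-flip p of 0.0625, the smallest 5 pairs can give. No paired analysis of sex was possible because sex differs within pair 6 only. In oligodendrocytes, heterozygous controls only means leaving out control 6 (Man1a2 -0.89).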
